A study of Caenorhabditis elegans with 20 samples.

Results

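Mitochondrial ribosomal protein genes were followed through immunoprecipitates of AIN-1 and AIN-2::GFP, the GW182-family partners of the microRNA Argonautes in Caenorhabditis elegans. The members are 64 of the 16378 genes with a probe on the spotted array. Their symbol in the probe table is mrpl- or mrps- followed by a number. By this symbol alone, 36 were assigned to the large subunit (mrpl) and 28 to the small subunit (mrps). The 64 genes were represented by 66 probes. The brighter probe by mean over all samples stood for mrpl-13 and for mrps-18B, which had 2 probes each. A filter on low signal left 61 of the 64 for testing (35 large, 26 small), among 12222 gene features of 11812 genes in all. It removed mrpl-51 and mrps-31, which were above background in 0 of 20 samples, and mrps-35, above background in 2.

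All 20 samples came from worms of mixed stages. Wild-type N2 worms gave immunoprecipitates (IPs) with AIN-1 antibody (n = 3), IPs with preimmune serum (n = 3) and total lysate RNA (n = 2). A line named A, with a single integrated copy of AIN-2::GFP, gave GFP immunoprecipitates, called the AIN-2::GFP IP (n = 3), and total RNA (n = 3). An injection line that made GFP alone from the ain-2 promoter gave the control GFP IP (n = 3) and total RNA, called promoter GFP total RNA (n = 3). Each transgenic genotype was thus 1 line. Every sample was a pool of whole worms, and AIN-1 was untagged while AIN-2 carried GFP. The series text calls the replicates independent biological ones.

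Mitochondria make the core membrane subunits of the respiratory chain on their own ribosomes, from messages of the mitochondrial genome. The protein subunits of these ribosomes are encoded in the nucleus, translated in the cytosol and imported. Some are counterparts of bacterial ribosomal proteins, and others are found only in mitochondria. In worms, lowering the expression of several mrpl and mrps genes is known for extending lifespan and inducing the mitochondrial unfolded protein response. AIN-1 and AIN-2 join the microRNA-loaded Argonautes to the machinery that represses and degrades target messages, so the IPs ask which messages travel with these complexes.

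Signal is given as quantile-normalized intensity in units of the sample's mean, and a log2 difference of 1 is a doubling. A spot counted as above background where it passed a limit set in each sample from chemoreceptor gene probes. Differences were tested between samples for each probe. Medians over members and over all features describe the brightness of probes, which does not order the genes by message level. Values of 0.0187 are at the floor and have no order among themselves. A value is a share of the sample's total signal, so the amount of RNA in an IP is not measured, and in whole-worm RNA fewer cells of a type and less RNA per cell cannot be told apart. Precision is limited throughout by the number of arrays.

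The libraries differed in brightness before any comparison. Mean scanner signal was 629 to 907 units in the AIN-1 IP, 329 to 729 in the AIN-2::GFP IP and 241 to 800 in the 8 total RNA samples. It was 9 to 47 in the preimmune IP and 46 and 12 in GFP IP replicates 2 and 3, against 370 in GFP IP replicate 1. Whole-worm tissue markers did not all move together: summed hypodermal markers (142 probes) were 837 to 939 in N2 total RNA and 139 to 175 in the AIN-1 IP, and 59 of them were above background in all AIN-1 IPs. Summed sperm markers (44 probes) were 13.4 to 16.6 in N2 total RNA and 56.7 to 163 in transgenic total RNA. The part of these differences in the results was not tested. Samples of the same replicate number deviated together in the AIN-1 and preimmune IPs, and some spots were extreme in both, as given below for mrpl-38 and mrps-21.

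In total RNA nearly all members gave signal in every sample. Of the 64 genes, 58 to 62 were above background in each total RNA sample (90.6% to 96.9%), where 41.6% to 46.2% of all gene features were. In all 8 total RNA samples 56 of them were above it. The median of the 61 tested members lay 0.70 to 0.96 (log2) above the median of all tested features in these samples. The median SD of a member over the 8 samples was 0.278 on the log2 scale, against 0.499 over all tested features.

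In the immunoprecipitates of AIN-1 and AIN-2::GFP the same genes lay below the median. The member median was 0.23, 0.26 and 0.08 (log2) under the median of all tested features in the 3 AIN-1 IPs. It was 0.30, 0.43 and 0.35 under it in the 3 AIN-2::GFP IPs. The GFP IPs stood on the other side, with the members 0.84, 0.22 and 1.01 above the median of all features. The preimmune IPs disagreed among themselves: the member median was 1.19 under that of all features in replicate 1, the dimmest library, and 0.42 and 0.53 above it in replicates 2 and 3. Above background were 35, 40 and 40 of the 64 members in the AIN-1 IPs and 41, 25 and 33 in the AIN-2::GFP IPs. That is 54.7% to 62.5% and 39.1% to 64.1% of the members, where 40% to 42.1% and 38.9% to 44.5% of all gene features were above background. The preimmune IPs had 8, 34 and 41 members above it (24.8% to 34.7% of all features), and the GFP IPs 56, 35 and 36 (35% to 43.6% of all features).

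**Figure D1:**
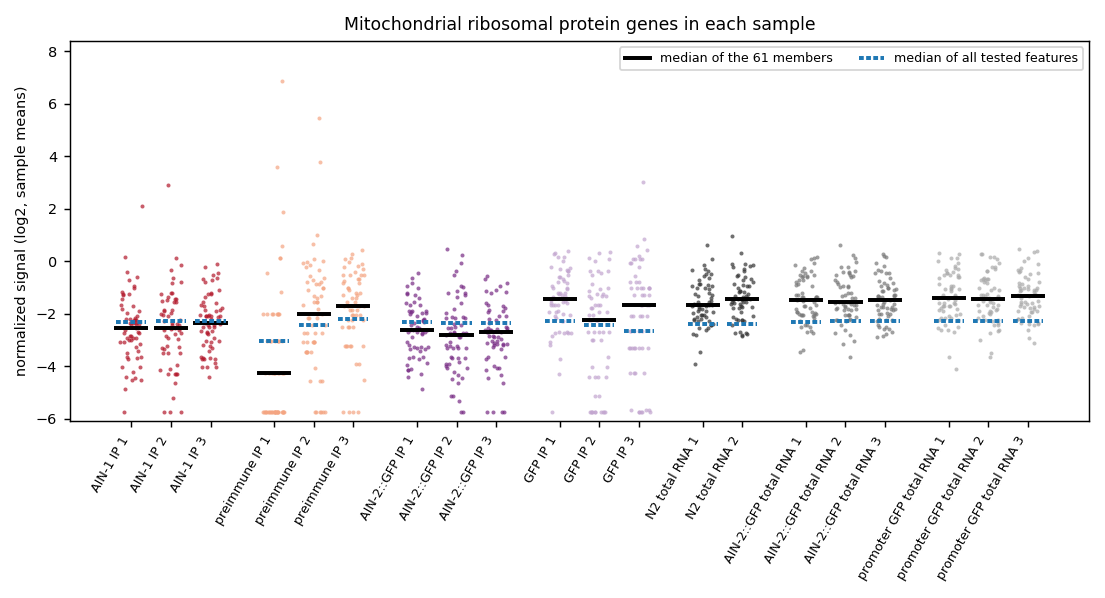
Normalized signal (log2, in sample means) of the 61 tested members in each of the 20 samples, 1 point a gene, with the member median as a black bar and the median of all tested features as a dashed blue bar. The black bar is above the blue one in all 8 total RNA samples and below it in the 3 AIN-1 and 3 AIN-2::GFP IPs, and isolated high points stand in the preimmune IPs and in GFP IP replicate 3.

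Enrichment or depletion with AIN-1 was read from its IP against total RNA of the same N2 worms. Of 61 members 7 were lower and 0 were higher by limma with a Benjamini-Hochberg adjusted p under 0.05. They were mrpl-20, mrps-11, mrpl-50, mrpl-47, mrps-15, mrps-7 and mrpl-58. That is 11.5% of the tested members, where 5.65% of all tested features were called lower and 6.1% higher. The calls depend on single libraries: leaving out any 1 of the 5 samples left 3 calls without AIN-1 IP replicate 3 and 0 in each of the other 4 fits. Set against the 6 transgenic total RNA samples in place of the 2 N2 samples, there were 12 calls, 1 higher and 11 lower. Over all 12222 tested features that fit called 925 higher and 968 lower. The median log2 difference of the 61 members was -1.01 (quartiles -1.74 and -0.12), against 0.11 over all tested features. Of the 61 differences 47 (77%) were below 0, against 46.7% of all features. In no comparison were the features matched to the members for total RNA signal, where the member median lay higher. With 14 members taken at the bound that background allows, and 1 that allows no fold at 0, the member median was -0.80.

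The member median minus that of all features was -1.12, and the spread of this value expected from the replicates was 0.21 (SD). Scaling moved the median of all features from 0.11 to -1.02 when the values were left as deposited, and to 0.08 with cyclic loess. Relative to it the member median was -1.22 and -1.19 under those scalings. Over all features the calls went from 746 higher and 691 lower to 230 higher and 1822 lower as deposited. The groups did not overlap for 43 of the 61 members, against 65.5% of all tested features.

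Large-subunit members lower in the AIN-1 IP included mrpl-20, the counterpart of a bacterial protein needed early in large-subunit assembly. Its signal was 0.0431, 0.0512 and 0.0607 in the AIN-1 IPs and 0.253 and 0.366 in N2 total RNA. The groups lay apart and no AIN-1 IP was above background, so the difference is a bound, at least 2.1-fold lower (limma adjusted p = 0.0193).

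Signals of mrpl-50, a subunit found only in mitochondria, were 0.0746, 0.0512 and 0.0756 in the AIN-1 IPs and 0.807 and 0.938 in N2 total RNA. It was at least 6-fold lower in the AIN-1 IP (limma adjusted p = 0.0343), the largest bound among the 7. Its 6 values in transgenic total RNA, 0.414 to 0.827, were also above every AIN-1 IP value.

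The remaining large-subunit calls were mrpl-47 and mrpl-58. The gene mrpl-47 is the counterpart of a bacterial protein at the tunnel exit, and mrpl-58 is the worm member of a family whose human protein is a peptidyl-tRNA hydrolase built into the large subunit. For mrpl-47 the AIN-1 IPs read 0.0782, 0.0401 and 0.0756 and N2 total RNA 0.262 and 0.371, at least 2.15-fold lower (limma adjusted p = 0.0365). For mrpl-58 they read 0.0431, 0.0512 and 0.123 against 0.405 and 0.446, at least 2.93-fold lower (limma adjusted p = 0.0467). All AIN-1 IP values of both genes were under the background limit.

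Among small-subunit members, mrps-11 (probe 7305), whose bacterial counterpart is on the platform of the subunit, was the single call measured on both sides. Its signal was 0.253, 0.28 and 0.238 in the AIN-1 IPs and 1.53 and 1.93 in N2 total RNA, all above background. The log2 difference was -2.75 ± 0.75 (SE, limma adjusted p = 0.0268), a 6.73-fold lower level. The AIN-1 IP values lay close together, under every total RNA value of the 3 strains, whose lowest was 1.01. The preimmune IPs, at 0.121, 0.952 and 0.631, were also under it. The AIN-1 IP differed from the preimmune IP by -0.71 ± 0.68 (SE, limma adjusted p = 0.518).

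The gene mrps-15, another small-subunit protein with a bacterial counterpart, read 0.0341, 0.0588 and 0.102 in the AIN-1 IPs and 0.217 and 0.321 in N2 total RNA, at least 1.82-fold lower (limma adjusted p = 0.0442). For mrps-7, the counterpart of the protein that nucleates the head of the bacterial small subunit, 2 AIN-1 IPs were at the floor and the other read 0.109, against 0.242 and 0.302. It was at least 1.86-fold lower (limma adjusted p = 0.0455). Neither gene was above background in an AIN-1 IP. The fits that left out 1 sample gave adjusted p-values of 0.0392 to 0.172 for mrpl-20, and up to 0.362 for mrps-15, the highest among the 7.

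Members nearest to no difference in this comparison were mrps-30, mrpl-40 and mrps-10. The log2 differences were 0.07 ± 1.30 for mrps-30, 0.10 ± 1.11 for mrpl-40 and -0.09 ± 0.92 for mrps-10 (SE, limma adjusted p = 0.985, 0.974 and 0.97). Their AIN-1 IP and N2 values overlapped, at 0.27 to 0.417 against 0.272 and 0.36 for mrps-30. The probes of highest and lowest mean log2 signal among the tested members, which is no order of message levels, were those of mrpl-10, the stalk base protein, and mrpl-54, a mitochondria-specific subunit. The AIN-1 IPs read 1.12, 1.1 and 0.918 for mrpl-10 against 0.9 and 0.931 in N2 total RNA. For mrpl-54 no AIN-1 IP was above background (0.0271 to 0.0617), while N2 total RNA read 0.186 and 0.156, at least 1.17-fold more with an adjusted p of 0.0897 in limma.

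The preimmune IP gives the background of the AIN-1 procedure, and it shared the 2 N2 samples with the comparison above. Of the 61 members 7 were lower than in N2 total RNA and 0 higher (11.5% and 0%), where 9.17% of all tested features were lower and 3.89% higher. They were mrpl-20, mrpl-47, mrps-2, mrpl-16, mrpl-54, mrpl-50 and mrps-16. The median over the 61 was -1.08, against -0.41 over all features, and 49 of 61 were below 0. The groups did not overlap for 30 members, against 36.9% of all features. Leaving out 1 sample gave 0 calls (without N2 replicate 2) to 17 (without preimmune IP replicate 3). Without N2 replicate 1 there were 3 calls. The median relative to all features was -0.67 with a replicate spread of 0.98 (SD), so its distance from 0 was within the spread between these dim libraries. Scaling moved the median of all features from -0.41 to -1.29 as deposited and -0.06 with cyclic loess, and cyclic loess gave 1 higher and 6 lower member calls. Over all features there were 476 higher and 1121 lower calls, 277 and 2408 as deposited, and 633 and 723 with cyclic loess. Without preimmune IP replicate 3 the calls over all features were 751 higher and 1808 lower.

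Individual preimmune values show the same limit. Signals of mrpl-20 were 0.053 in replicate 1 and at the floor in replicates 2 and 3, against 0.253 and 0.366 in N2 total RNA, at least 1.32-fold lower (limma adjusted p = 0.00292). Those of mrpl-47 were at the floor in replicates 1 and 2 and 0.106 in replicate 3, at least 1.35-fold lower (limma adjusted p = 0.00515). Those of mrps-2, a small-subunit protein with a bacterial counterpart, were at the floor in replicates 1 and 2 and 0.0432 in replicate 3, against 0.283 and 0.33, at least 1.33-fold lower (limma adjusted p = 0.00572). None of these 9 values was above background.

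Set directly against the preimmune IP, the AIN-1 IP had 3 members higher and 1 lower, of 61 (4.92% and 1.64%), where 9.44% of all tested features were higher and 2.36% lower. The split did not hold under other scalings: values as deposited gave 1 higher and 5 lower, and cyclic loess gave 0 higher and 11 lower. Over all features 1154 higher and 289 lower calls became 1312 and 588, and 927 and 739. Groups without overlap were seen for 15 members, against 29.8% of all features. The member median was 0.07, against 0.42 over all features, which scaling moved to 0.20 as deposited and 0.04 with cyclic loess. Relative to all features it was -0.35 with a replicate spread of 0.97 (SD). Leaving out 1 sample gave 0 calls (without AIN-1 IP replicate 2), 1 (without AIN-1 IP replicate 1), 8 (without preimmune IP replicate 1) and 9 (without preimmune IP replicate 3).

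The member with the smallest adjusted p here was mrpl-2, the counterpart of a bacterial protein beside the peptidyl transferase centre. Its signal was 0.604, 0.573 and 0.603 in the AIN-1 IPs and 0.121, 0.187 and 0.106 in the preimmune IPs, none of which was above background. The groups did not overlap, the AIN-1 IP being higher by at least 2.57-fold (limma adjusted p = 0.00939). The adjusted p was 0.0924 with cyclic loess and 0.0524 without AIN-1 IP replicate 2.

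The gene mrpl-1 went the other way. It encodes the counterpart of the bacterial protein of the mobile stalk at the exit of transfer RNA. It read 0.285, 0.343 and 0.333 in the AIN-1 IPs and 1.49, 0.784 and 0.887 in the preimmune IPs, a log2 difference of -1.58 ± 0.40 (SE, limma adjusted p = 0.0187). All 6 values were above background and the groups did not overlap. N2 total RNA lay between them at 0.518 and 0.525. Without AIN-1 IP replicate 1 or 2 the adjusted p was 0.0664 and 0.0952.

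The other members called higher than in the preimmune IP were mrpl-16, whose bacterial counterpart sits near the site of the incoming transfer RNA, and mrpl-13. Signals of mrpl-16 were 0.192, 0.163 and 0.195 in the AIN-1 IPs and 0.0599 and at the floor in the other two in the preimmune IPs (limma adjusted p = 0.0315). For mrpl-13 they were 0.375, 0.269 and 0.108 against 0.0187, 0.0426 and 0.106 (limma adjusted p = 0.0363). No fold is given for these genes, because the preimmune limit lay above the bright group's mean. The second probe of mrpl-13 had a log2 difference of -0.81 in this comparison, opposite to the 2.34 of the probe used, and -3.28 against N2 total RNA, opposite to 0.48. The second probe was above background in 2 samples and the probe used in 14.

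The AIN-2::GFP IP was compared with total RNA of its own strain. Most members were again below 0, 55 of 61 (90.2%) against 50.2% of all tested features. The median log2 difference was -1.40 (quartiles -1.83 and -0.97), where the median over all features was 0. By limma, 2 members were lower (mrps-15 and mrpl-20) and 1 was higher (mrpl-2). These are 3.28% and 1.64% of the tested members, where 2.72% of all features were lower and 2.79% higher. The median with 15 members at the bound and 2 at 0 was -1.06.

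The replicate spread of the member median was 0.09 (SD) around its distance of -1.40 from all features. As deposited the median of all features was -0.42, and with cyclic loess 0.05, with the member median -1.46 and -1.42 from it. Those scalings gave 0 higher and 10 lower members, and 1 higher and 7 lower. Over all features, 341 higher and 332 lower calls became 148 and 428 as deposited. The groups did not overlap for 52 of 61 members, against 47% of all features. Calls fell to 0 without AIN-2::GFP IP replicate 2 or total RNA replicate 3, and to 1 without AIN-2::GFP IP replicate 3 or total RNA replicate 1.

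The lowest adjusted p belonged to mrps-15, as one of the 7 already lower in the AIN-1 comparison. It read 0.0782, 0.0247 and 0.0187 in the AIN-2::GFP IPs, none above background, and 0.242, 0.218 and 0.321 in total RNA. It was at least 1.88-fold lower (limma adjusted p = 0.00943). The values of mrpl-20 were 0.0474 and the floor in the other two AIN-2::GFP IPs, against 0.177, 0.163 and 0.174, at least 1.25-fold lower (limma adjusted p = 0.0109). All IP values of mrpl-20 were lower than these.

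The next members by adjusted p did not pass. For mrps-2 the AIN-2::GFP IPs read 0.0582, 0.0806 and 0.0462 and total RNA 0.317, 0.24 and 0.302, at least 2.08-fold apart (limma adjusted p = 0.0558). For mrps-11 they read 0.341, 0.429 and 0.12 against 1.13, 1.54 and 1.22, the last IP not above background, with a log2 difference of -2.30 ± 0.67 (SE, limma adjusted p = 0.0563). In both genes every IP value was under every total RNA value. For mrps-34, a subunit found only in mitochondria, the IPs read 0.0637, 0.0282 and 0.0491, and total RNA 0.241, 0.681 and 0.247, at least 2.51-fold apart (limma adjusted p = 0.0612). The high total RNA value, in replicate 2, had its like in promoter GFP total RNA replicate 2, at 1.23 against 0.176 and 0.258.

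The exception was mrpl-2 (probe 1893). It was the single member called higher over total RNA in either AIN comparison. Its signal was 0.57, 1.17 and 0.522 in the AIN-2::GFP IPs and 0.175, 0.215 and 0.148 in total RNA of the strain. All 6 values were above background and the groups did not overlap. The log2 difference was 1.99 ± 0.46 (SE, limma adjusted p = 0.0197), a 3.98-fold higher level. The call was lost with values as deposited (adjusted p = 0.0794) and without AIN-2::GFP IP replicate 2 (0.135), total RNA replicate 1 (0.0848) or total RNA replicate 3 (0.098).

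With AIN-1, mrpl-2 differed by 0.96 ± 0.51 from N2 total RNA (SE, limma adjusted p = 0.25). N2 total RNA read 0.312 and 0.29, and transgenic total RNA 0.148 to 0.215. Every AIN-1 IP value, 0.573 to 0.604, was above these 8 values. Against the 6 transgenic samples alone the log2 difference was 1.76 (limma adjusted p = 0.00773), and it was 0.11 from N2 with values as deposited. In the control, the GFP IP read 0.209, 0.293 and 0.0999 and promoter GFP total RNA 0.156, 0.196 and 0.162, a difference of 0.10 (limma adjusted p = 0.968).

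The gene mrps-6 (probe 20971), whose bacterial counterpart sits on the small-subunit platform, had values on the same side. It read 0.514, 0.374 and 0.423 in the AIN-1 IPs, 0.516, 0.405 and 0.239 in the AIN-2::GFP IPs and 0.165 to 0.243 in the 8 total RNA samples. The differences of 0.96 ± 0.74 and 0.92 ± 0.66 from total RNA did not pass the test (SE, limma adjusted p = 0.459 and 0.473). The first was -0.08 with values as deposited. No preimmune IP was above background for mrps-6 (0.0916 to 0.176). The AIN-1 IP was at least 1.88-fold above them, with a limma adjusted p of 0.0869.

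**Figure D2:**
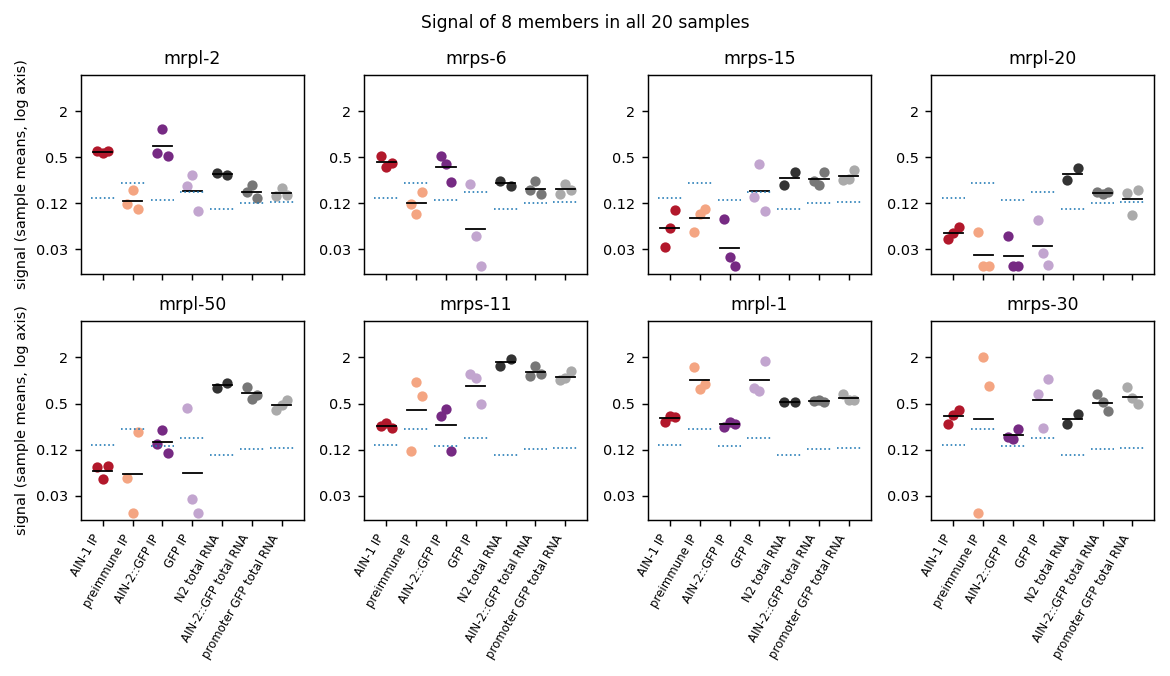
Signal (in sample means, log axis) of 8 members in all 20 samples, 1 point a sample, with the group mean of log2 values as a black bar and the mean background limit of the group's samples as a dotted blue line. The AIN-1 and AIN-2::GFP IP points of mrpl-2 lie above all total RNA points, those of mrps-15, mrpl-20 and mrps-11 lie below all total RNA points, and mrpl-1 has its highest points in the preimmune and GFP IPs.

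The control GFP IP was compared with promoter GFP total RNA in the same way. By limma 0 members passed the test, with the smallest adjusted p at 0.188 for mrpl-47, and 0.0245% of all tested features were called. At an unadjusted p under 0.05 were 11 of 61 members (18%), against 10.9% of all features. The member median was -0.64 against -0.22 over all features, and 46 of 61 members were below 0 (75.4%, against 61.1%). Groups without overlap were seen for 14 members, against 17.3% of all features. The distance of -0.42 from all features equalled the replicate spread of 0.42 (SD). In GFP IP replicate 1 alone, the bright library, the distance was 0.06, and 1 member was called lower in a fit that assumes this lone sample to vary like the other groups. Leaving out that bright library gave 4 lower calls among the members, which are not set here against calls over all features.

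The difference of the AIN-2::GFP enrichment and the GFP enrichment was tested as an interaction. No member passed (smallest adjusted p = 0.287), and 0.0245% of all tested features did. At an unadjusted p under 0.05 were 6 of 61 members (9.84%), against 8.02% of all features. The member median was -0.64 against 0.17 over all features, 0.81 apart with a replicate spread of 0.43 (SD). With GFP IP replicate 1 alone the distance was -1.38. Without that replicate 1 member was called. The interaction values of the leading members were -1.78 ± 0.55 for mrpl-1, 1.89 ± 0.64 for mrpl-2 and 2.62 ± 0.93 for mrps-6 (SE, limma adjusted p = 0.287, 0.357 and 0.38). For mrpl-1 the AIN-2::GFP IPs read 0.249 to 0.286 and the GFP IPs 0.727 to 1.79, with 0.53 to 0.666 in the total RNA of both strains. As in the N2 worms, the control IP of mrpl-1 was above total RNA and the AIN IP under it.

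The AIN-1 and AIN-2 comparisons used different worms, antibodies and total RNA samples. Of the 61 members, 46 had differences below 0 in both and 5 above 0 in both: mrpl-2, mrpl-48, mrps-12, mrps-22 and mrps-6. Of the others, 9 were below 0 with AIN-2 alone and 1, mrpl-45, with AIN-1 alone. Across the 61 genes, which are not independent replicates and share the fit, Pearson's r was 0.653 and Spearman's rho 0.689, where Pearson's r over all tested features was 0.632. The difference between the enrichments was tested itself: no member passed limma's test (smallest adjusted p = 0.798), where 0.00818% of all features did. At an unadjusted p under 0.05 were 1 of 61 members (1.64%) and 5.69% of all features. The members' median difference was 0.22 against 0.17 over all features.

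**Figure D3:**
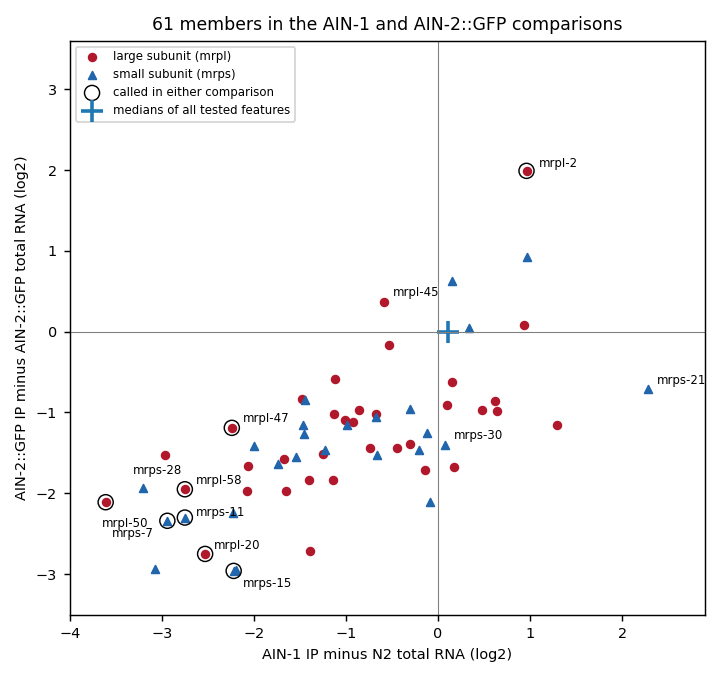
Log2 difference of each of the 61 tested members in the AIN-1 IP against N2 total RNA (x axis) and in the AIN-2::GFP IP against AIN-2::GFP total RNA (y axis), with large-subunit genes as red circles, small-subunit genes as blue triangles and a ring around members called in either comparison. Of the points, 46 lie at the lower left, below 0 on both axes, and mrpl-2 is the ringed point in the upper right.

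Both subunits, as assigned by symbol, had medians below 0. Median log2 differences were -0.92 for the 35 large-subunit genes and -1.34 for the 26 small-subunit genes in the AIN-1 comparison, with 26 and 21 below 0. They were -1.19 and -1.43 in the AIN-2 comparison, with 32 and 23 below 0. The 40 members classed as bacterial in type had medians of -1.13 and -1.45, and the 21 classed as specific to mitochondria -0.59 and -1.15. Differences between these classes were not tested.

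By role, the stalk proteins mrpl-1, mrpl-10, mrpl-11 and mrpl-12, which handle transfer RNA and translation factors, ranged from -1.14 to 0.15 with AIN-1 and from -1.84 to -0.62 with AIN-2. Of the proteins around the exit tunnel, mrpl-4, mrpl-22, mrpl-23 and mrpl-24 ranged from -1.65 to 0.17 and from -1.97 to -0.16. The gene mrpl-47, described above as a tunnel exit protein, was not counted in this class. It had -2.24 with AIN-1, where it was called lower (limma adjusted p = 0.0365), and -1.19 with AIN-2. The 4 genes of the mrps-18 family encode proteins related to each other. By the probes used they lay between -1.47 and -0.12 with AIN-1. With AIN-2 these probes lay between -1.26 and -1.16, and the value of mrps-18C rests in part on 1 high total RNA library. Its AIN-2::GFP total RNA read 0.387, 0.979 and 0.327, and its AIN-2::GFP IPs 0.257, 0.222 and 0.194. Replicate 2 of promoter GFP total RNA was high too, at 1.13 against 0.283 and 0.271. The second probe of mrps-18B lay outside both ranges, at -3.53 with AIN-1 and -2.5 with AIN-2. Relative to preimmune serum, AIN-1 IPs differed by -1.15 on this second probe, opposite to 1.42 on the probe used. The second probe was above background in 4 samples and the probe used in 16. Cross-hybridization within that family was not tested. Apart from mrpl-47, none of these genes was called in either AIN comparison against total RNA.

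One member with a known role in ageing, mrps-5, whose knockdown is known for extending worm lifespan, had values near the list's medians. Its signal was 0.421, 0.434 and 0.645 in the AIN-1 IPs and 1.06 and 1.25 in N2 total RNA, a log2 difference of -1.23 ± 0.86 (SE, limma adjusted p = 0.401). In the AIN-2::GFP IPs it read 0.422, 0.431 and 0.331, against 1.09, 1.18 and 0.963 in total RNA, a difference of -1.46 ± 0.76 (SE, limma adjusted p = 0.313). All these values were above background and neither pair of groups overlapped, and neither difference passed the test. In the GFP IP it read 0.771 to 1.31 and in promoter GFP total RNA 1.1 to 1.21, which overlap.

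**Figure D4:**
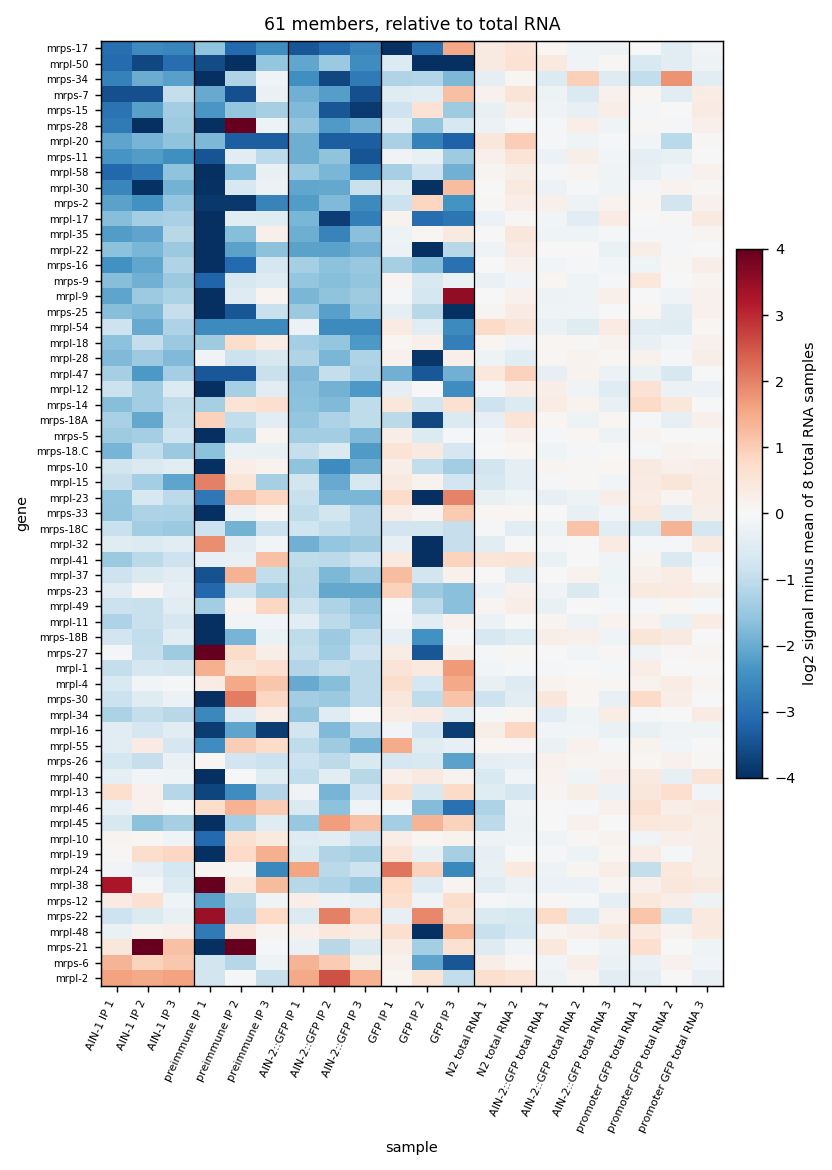
Log2 signal of the 61 tested members (rows, ordered by their mean over the AIN IPs) in each of the 20 samples (columns), minus the gene's mean over the 8 total RNA samples, with colours limited to -4 and 4. Blue, for lower values, fills most of the AIN-1 and AIN-2::GFP IP columns, the total RNA columns are pale, and mrpl-2 and mrps-6 are the bottom rows with red in both AIN IPs.

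Some of the highest member values stood in single libraries. The gene mrps-21, a small-subunit protein, read 7.45 in AIN-1 IP replicate 2 and 44 in preimmune IP replicate 2, against 0.44 and 0.73 in the other AIN-1 IPs and 0.227 to 0.514 in total RNA. Its difference of 2.28 ± 2.05 from N2 total RNA was the largest positive value among the members and did not pass the test (SE, limma adjusted p = 0.534). The value was between 0.46 and 3.15 when 1 sample was left out. For mrpl-38, AIN-1 IP replicate 1 read 4.32 and preimmune IP replicate 1 read 118, while the other AIN-1 IPs read 0.432 and 0.31. In both genes the extreme values carry the same replicate number in both IPs.

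The study's own definition of an associated gene ranked each gene's ratio of IP to total RNA within an IP replicate. The member median of these percentile ranks was 24.5, 24.5 and 25.1 in the AIN-1 IPs and 19.7, 15.7 and 17.3 in the AIN-2::GFP IPs, where 50 is the middle. It was 23.3, 39.5 and 49.5 in the preimmune IPs and 51.1, 34.1 and 47.4 in the GFP IPs. Between 30 and 31 of 61 members ranked under 25 in an AIN-1 IP, and 36 to 46 in an AIN-2::GFP IP. The counts were 32, 17 and 13 in the preimmune IPs and 14, 23 and 20 in the GFP IPs. By the ranking itself 25% of all features lie under 25. With limma, 0 members were associated with AIN-1 (316 of all features) and 0 with AIN-2 (1 of all features). The counts at an unadjusted p under 0.05 were 0 and 1, the latter being mrpl-2.

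By the study's criteria with the methods' t-test at 0.01, 2 members were associated with AIN-1, mrpl-2 and mrps-6, where 16.6% of all features were. One member was associated with AIN-2, again mrpl-2, where 11.3% of all features were. After Benjamini-Hochberg adjustment 1 and 0 remained, where 1027 and 388 of all features did. The ranks of mrpl-2 were 72.5, 70.9 and 73.5 in the AIN-1 IPs and 90.9, 96.6 and 91.4 in the AIN-2::GFP IPs. They were 21.6 to 44.5 in the preimmune IPs and 41.2 to 81.1 in the GFP IPs.

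Other genes of mitochondrial translation had medians nearer 0. This list was written from gene names and also holds rpom-1 and hmg-5, which belong to mitochondrial transcription and DNA packaging. Of 43 listed symbols 27 were on the array and 26 were tested, and 0 were called in the AIN-1, AIN-2::GFP or GFP comparison with total RNA. Their median was -0.35 with AIN-1 (15 below 0) and -0.92 with AIN-2 (22 below 0). The elongation factor gene tufm-1 had -1.63 ± 0.64 and -1.63 ± 0.57 (SE, limma adjusted p = 0.117 in both). The gene dap-3, which encodes a further small-subunit protein under another name, had -1.23 ± 0.81 and -1.88 ± 0.72 (SE, limma adjusted p = 0.366 and 0.146). The leucyl-tRNA synthetase gene lars-2 had 1.40 ± 0.59 and 0.31 ± 0.52 (SE, limma adjusted p = 0.141 and 0.793). In the preimmune IP 2 of the 26 were called lower and 1 higher, where 9.17% of all tested features were lower and 3.89% higher. The lower ones were mtrf-1L, at -2.87 ± 0.63, and tufm-1, at -2.22 ± 0.64 (SE, limma adjusted p = 0.0101 and 0.0358). The higher one was dars-2, at 3.78 ± 0.77 (SE, limma adjusted p = 0.00609). There dap-3 had -0.29 and lars-2 0.52, and neither was called.

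Products of mitochondrial translation join the respiratory chain, and the nuclear genes of that chain had medians of -1.76 with AIN-1 and -1.56 with AIN-2, with 15 and 9 of 44 called lower and 0 higher. Cytosolic ribosomal protein genes stood further down, at -2.94 and -3.06, with 59 and 60 of 66 called lower and 0 higher. Medians in the preimmune IP were -1.49 for the respiratory chain and -1.32 for cytosolic ribosomal proteins, and in the GFP IP -0.39 and -0.41. The mitochondrial ribosomal protein medians, -1.01 and -1.40, thus lay between those of the other genes of mitochondrial translation and of the respiratory chain. The difference between lists was not tested.

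**Figure D5:**
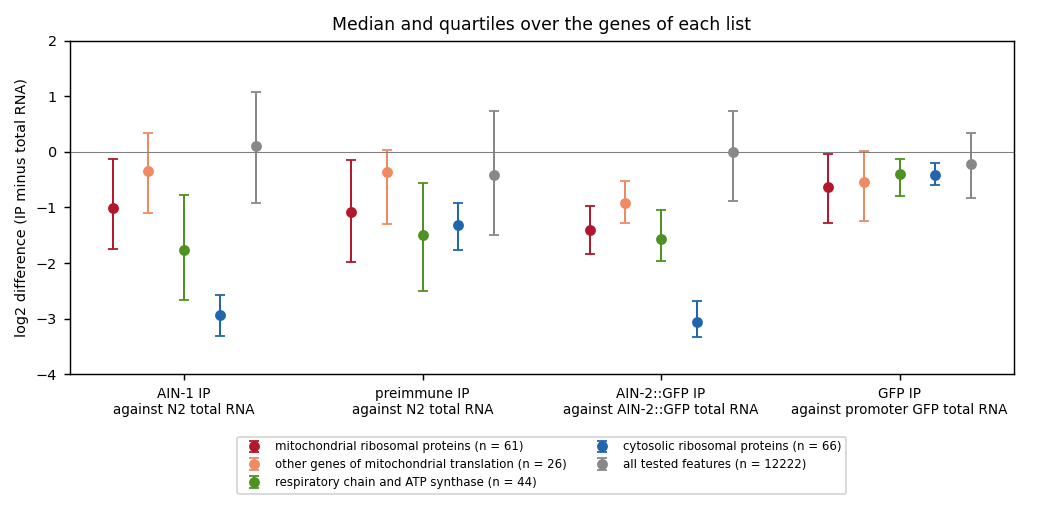
Median (point) and quartiles (bars) of the log2 difference between IP and total RNA over the genes of 4 lists and over all tested features, in 4 comparisons. With AIN-1 and AIN-2::GFP the mitochondrial ribosomal protein genes, at -1.01 and -1.40, lie under all tested features and above the cytosolic ribosomal protein genes, at -2.94 and -3.06.

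Total RNA of the strains was compared last. Between AIN-2::GFP and promoter GFP total RNA 0 of 61 members passed limma's test, where 0.00818% of all features did. At an unadjusted p under 0.05 were 0 members and 0.36% of all features. The member median was -0.12 against -0.04, and the groups did not overlap for 8 members, against 8.76% of all features. Between N2 and transgenic total RNA 0 of 61 passed, where 1.04% of all features did, with medians of -0.03 and -0.16. At an unadjusted p under 0.05 were 0 members and 12.9% of all features. The smallest adjusted p there was 0.512, for mrpl-2. Differences of N2 from transgenic total RNA ranged from -1.07 to 0.96 over the members.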

How the data were processed

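RNA of 20 samples in 7 groups was measured on spotted arrays. The deposited values are linear spot intensity in units of a sample's mean. This was read from the values: times 1 constant a sample, 100% were whole (tolerance 0.001). Per the labels' protocols, RNA was amplified 1 time and carried Cy3 or Cy5. Which scanner and background correction were used is not given in the sources used here. The probe table names 1 gene for 17461 of the 23232 features and does not list 5771. All 64 members were found in the RefSeq gene table by Entrez ID.

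Here the values were quantile normalized, set to a floor at the 10th percentile of the positive values (0.0187, holding 32.9% of values), and taken to log2. The 12222 gene features whose mean passed the 30th percentile went into limma 3.58.1 (R 4.3.3), with 7 group means and dye, two-sided, Benjamini-Hochberg adjusted over all of them at 0.05. The size and direction of fitted differences were checked on simulated data with independent normal noise and no floor. Error rates in the real data were not tested by it. Figures were made with Python 3.11.15 and matplotlib 3.10.9. The background limit was the median plus 2 scaled MADs of 1278 chemoreceptor features in each sample, in place of the study's empty spots. Where no sample of a group passed it, "at least" gives the bright group's mean over the higher of that limit and the dim signal, from normalized log2 values. All bounds depend on this choice.

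Every member could be named. Values per sample were given for the 6 members of smallest adjusted p in the AIN-1 and AIN-2::GFP comparisons and up to 3 in others with calls, members called against the majority, the brightest, the dimmest and the 3 nearest 0. mrpl-58, mrps-5, mrps-6, mrps-21, mrpl-38 and mrpl-13 were added after their values were seen. The members and lists were chosen with earlier results of these data known.

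Replicate numbers were checked as pairs: deviations of same-numbered samples correlated at 0.354 to 0.592 in the AIN-1 and preimmune IPs, 0.396 to 0.595 in the AIN-2::GFP and GFP IPs and 0.432 to 0.698 in the transgenic total RNA. They correlated at -0.148 to 0.163 between IPs and total RNA of a strain, except 0.33 and 0.404 for the preimmune IP. Alternatives were other scalings, floors, filters, covariates, variance settings and probe rules, the replicate block, the methods' t-test, leaving out each sample and, added after seeing the data, GFP IP replicate 1 alone.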

Additional observations from a re-analysis of the deposited data

How the results depend on the processing

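The distance of the member median from all tested features stayed below 0 under all 16 alternatives for AIN-1 (-1.58 to -1.02) and for AIN-2::GFP (-1.46 to -1.23, and -1.39 to -1.23 with 1 sample left out). It was -1.58 for AIN-1 with a covariate that sets the AIN-1 and preimmune IPs and replicate 1 of the other IPs apart. No label names this sample split as a batch, and it was taken from earlier results of these data. The distance ranged from -1.11 to -0.21 for the preimmune IP, and between the AIN-1 and preimmune IPs it reached 0.06 when 1 sample was left out. With GFP IP replicate 1 alone it was 0.06 for the GFP IP and -1.38 for the AIN-2::GFP against the GFP enrichment.

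Counts of called members moved more, and those of fits that left out 1 sample were mostly not set against all features. Where 1 sample was left in a group, it was assumed to vary like the other groups. For AIN-1 against N2, where 7 were called, values as deposited gave 23, the 5th percentile floor and the sample split 3 each, the 6 transgenic samples 12, and leaving out 1 sample 0 to 3. For the preimmune IP (7) values as deposited gave 19, and leaving out 1 sample 0 to 17. For AIN-1 against the preimmune IP (4) cyclic loess gave 11, and leaving out 1 sample 0 to 9. For AIN-2::GFP (3) values as deposited gave 10, cyclic loess 8, the 20th percentile floor 9, no dye term 5, the sample split 7, and leaving out 1 sample 0 to 3. For the GFP IP (0) the sample split and replicate 1 alone gave 1 each, and leaving out 1 sample 0 to 4. The interaction (0) gave 0 to 1 when 1 sample was left out. The methods' t-test gave 2 AIN-1 and 1 AIN-2 associated members in place of 0. Dim libraries, values at the floor and groups of 2 or 3 samples limit all of these. The cause of the changes was not tested.

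Signs turned for more members than those named: in the AIN-1 comparison 47 of 61 were below 0, but 58 as deposited and 55 against the 6 transgenic samples. Of the members followed singly there, 4 turned, none of them called. mrps-6 was -0.08 as deposited and -0.87 with the sample split. mrps-30 was -0.97 as deposited, -0.02 with cyclic loess, -0.12 with the replicate block, -0.06 with the sample split, -0.77 against the 6 transgenic samples and -0.33 to 0.45 with 1 sample left out (-0.07 and -0.02 without AIN-1 IP replicates 2 and 3). mrpl-40 was -0.52 as deposited, -0.06 with the replicate block, -0.38 against the transgenic samples and -0.34 to 0.51 with 1 sample left out (-0.08 without AIN-1 IP replicate 2). mrps-10 was 0.05 without AIN-1 IP replicate 1 and 0.30 without N2 replicate 2 (-0.51 to 0.30 with 1 sample left out).

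The main fit has no term for replicate numbers. The replicate block gives each replicate number a common effect in all groups, so it does not model pairs within certain groups only. With this block the counts of called members were 6 for AIN-1, 8 for the preimmune IP and 4 for AIN-1 against the preimmune IP. They were 4 for AIN-2::GFP and 0 in the other comparisons. The block lost mrps-15 with AIN-1 (log2 difference -2.23, limma adjusted p = 0.0577) and added mrps-34 with AIN-2::GFP (limma adjusted p = 0.047).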

Other observations

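In the RefSeq gene order 1 pair of members lay next to each other, mrps-2 and mrpl-4, and 1 member lay beside a cytosolic ribosomal protein gene. The log2 differences of mrps-2 and mrpl-4 in the AIN-2::GFP IP were -2.24 and -1.67, and neither passed the test (limma adjusted p = 0.0558 and 0.071). Their signs were opposite in the other IPs against total RNA. The values were -2.23 and 0.17 in the AIN-1 IP, -3.6 and 1.37 in the preimmune IP, and -0.64 and 0.32 in the GFP IP.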
